A study of Mus musculus with 7 samples.

Results

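Between the OL precursor cell (OPC) and the myelinating oligodendrocyte (OL) lies a short stage, in which cells have committed to differentiate and newly formed OLs extend processes but have not yet wrapped axons. Cells at this stage are recognised by genes that are switched on for a brief time, and many of these are reduced again once compact myelin is made. They include a receptor that holds maturation back (Gpr17), a kinase that relays signals from axons (Fyn), and proteins of the membrane and cytoplasm that are used as markers, such as Bcas1 and Enpp6. Levels of 10 such genes (Gpr17, Bcas1, Enpp6, Fyn, Itpr2, Tmem2, Tmem141, Lims2, Rnf122 and Nfe2l3) were examined, taken by gene symbol from a table of 22880 genes. All 10 symbols were found in the table, and all 10 passed the minimum for testing.

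RNA was sequenced from P14 optic nerves of 4 control mice (CT), homozygous for a floxed Fasn allele and without Cre, and 3 conditional mutants (cMU), homozygous for the same allele and carrying Olig2Cre, with both nerves of 1 mouse pooled as 1 sample. Both groups were on a C57Bl/6 background, into which the floxed mice had been backcrossed for at least 3 generations. Cre expressed under Olig2 regulatory elements removes Fasn in OPCs and OLs, and also in any other cell that expresses or has expressed Olig2. Since CT carried no Cre, effects of the Olig2Cre allele itself cannot be told apart from those of Fasn loss. Values of whole nerve average over OL lineage cells, astrocytes, microglia, vessels and meninges, and the sex of single mice was not given in the sources used here.

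Libraries held between 27451993 and 43457959 estimated reads. Fasn, the targeted gene and the enzyme of de novo fatty acid synthesis, fell from 205 ± 25.1 FPKM (SD, n = 4) in CT to 56.3 ± 11.3 (SD, n = 3) in cMU, with no overlap between the groups, which matched the labels of all 7 samples. FPKM scales fragments by the length given for the gene and by library size, so comparisons between different genes depend on the lengths used. OL lineage, astrocyte, microglia, vessel and meningeal markers were all detected in every sample, whereas Rbfox3, which marks neuronal cell bodies, did not exceed 1.90 FPKM. A gene was called when the adjusted p of limma-trend on log2(FPKM + 0.5), with Benjamini-Hochberg adjustment over 13866 genes, was under 0.05. By this rule 188 genes (1.36% of those tested) were lower and 175 (1.26%) higher in cMU, and the median log2 fold change of all tested genes was 0.05. The split was 215 lower and 124 higher with FPKM rescaled by the median ratio, 260 and 101 with the deposited normalized counts, 281 and 141 with quantile normalization, and 269 and 890 with the replicate block. Counts of genes called higher with the block in the lists below stand beside these 890 of 13866 genes.

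The sequences before the start of 3 of the 10 genes are shown first, since all 10 genes had lower means in cMU and the stage is known to depend on transcription factors of the SOX, OLIG and MYRF families. RefSeq (GRCm38.p6) gave promoter windows for 5 of the 10 genes (Tmem141, Enpp6, Fyn, Itpr2 and Nfe2l3). Those printed are the 250 bases before the start of Tmem141, a gene called lower in cMU, of Enpp6, whose groups lay apart without a call, and of Nfe2l3, whose groups overlapped. Each is given 5′ to 3′ on the strand of the gene, at chr2:25622006-25622255 (minus strand), chr8:46986637-46986886 (plus strand) and chr6:51432419-51432668 (plus strand). Capitals mark matches to any of the letters searched.
Tmem141: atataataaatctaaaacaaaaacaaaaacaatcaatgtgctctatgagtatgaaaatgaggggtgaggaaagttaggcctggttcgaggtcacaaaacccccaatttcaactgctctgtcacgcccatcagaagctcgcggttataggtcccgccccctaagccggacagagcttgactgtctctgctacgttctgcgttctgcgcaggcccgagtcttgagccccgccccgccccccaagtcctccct
Enpp6: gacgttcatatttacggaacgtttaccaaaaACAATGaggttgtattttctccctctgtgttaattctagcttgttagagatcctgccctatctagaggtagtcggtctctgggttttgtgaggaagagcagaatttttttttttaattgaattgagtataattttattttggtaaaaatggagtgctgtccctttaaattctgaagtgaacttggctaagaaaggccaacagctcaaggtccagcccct
Nfe2l3: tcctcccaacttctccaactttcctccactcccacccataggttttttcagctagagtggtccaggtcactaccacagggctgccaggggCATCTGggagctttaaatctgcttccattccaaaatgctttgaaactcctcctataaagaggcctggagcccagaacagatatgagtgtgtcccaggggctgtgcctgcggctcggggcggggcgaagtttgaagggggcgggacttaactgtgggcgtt

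The letters searched on both strands were ACAAAG and ACAATG (SOX-type), CAGCTG and CATCTG (E-boxes, the kind of site OLIG factors bind), and CTGGCAC and CTGGTAC (MYRF-type). Among the 5 windows, Enpp6 held ACAATG 219 bases before the start and Nfe2l3 held CATCTG 160 bases before it, and neither match overlapped another. No match was found in the 250 bases of Tmem141, Fyn or Itpr2. The Fyn window (chr10:39369549-39369798) lies inside the span given below for Fyn, and 35 of its bases are exonic in GENCODE. It precedes a RefSeq start inside the gene, and the bases before the first position of that span were not searched. Over all 32851 windows of this length, ACAAAG occurred in 16.5%, ACAATG in 10.7%, CAGCTG in 13% and CATCTG in 14.4%, and the MYRF-type letters in 4.19% and 1.83%. The 3 printed windows differed in base composition, with 51.6% G and C and 12 CpG in Tmem141, 38.4% and 4 CpG in Enpp6, and 55.2% and 6 CpG in Nfe2l3. The median over all windows was 52.4% and 6 CpG.

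In the control nerve the 10 genes spanned a wide range of levels. Bcas1 was highest at 485 FPKM, followed by Fyn at 356, Gpr17 at 241, Enpp6 at 212, Tmem141 at 125, Rnf122 at 60.7, Lims2 at 43.0, Itpr2 at 40.4, Tmem2 at 29.3 and Nfe2l3 at 10.6. In this order the CT values of Gpr17 and Enpp6, of Lims2 and Itpr2, and of Itpr2 and Tmem2 overlapped between neighbours, whereas the other neighbours were separated in all 4 CT samples. The order depends on the length used for each gene. That length was 1858 bases for Enpp6, against 6412 exonic bases in GENCODE, whereas for Gpr17 both were 5195. Their median CT level of 92.8 FPKM stood above the median of 9.95 FPKM over all genes tested. Together the 10 genes took 0.458% ± 0.0240 of all estimated reads in CT (SD, n = 4) and 0.335% ± 0.0366 in cMU (SD, n = 3).

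**Figure D1:**
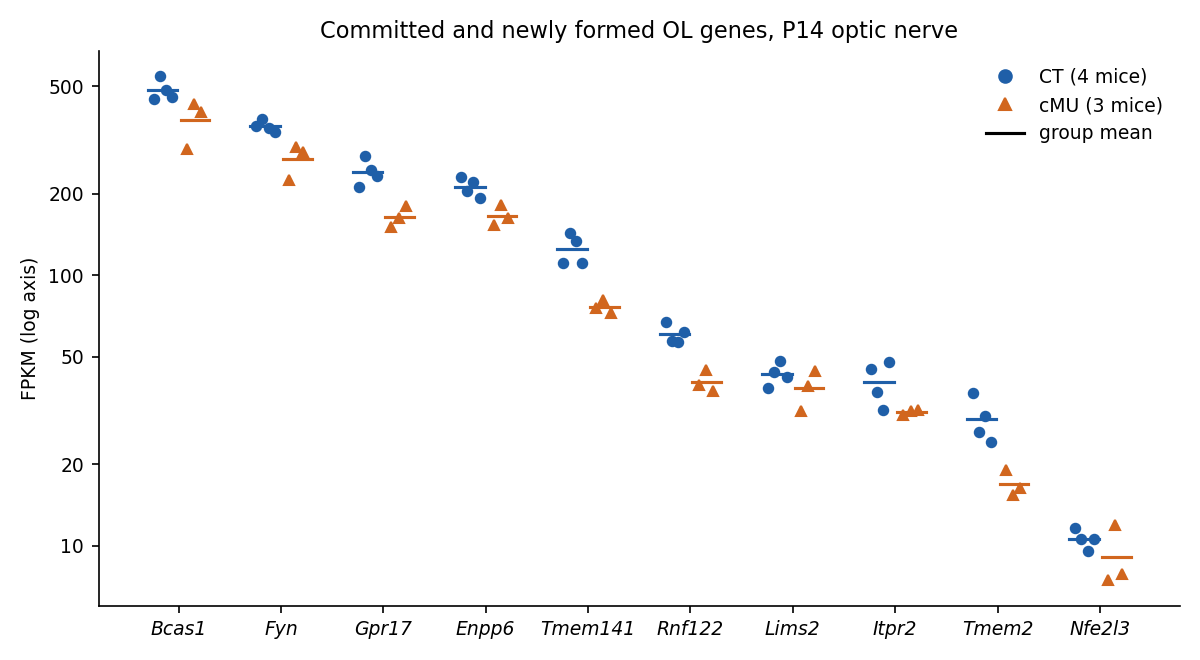
FPKM (log axis) of the 10 genes in each of the 7 samples, in order of their CT mean, with 4 CT samples as circles, 3 cMU samples as triangles and group means as lines. The groups were separated for 8 genes and overlapped for Lims2 and Nfe2l3.

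All 10 genes had a lower mean in cMU, and 4 of them (Tmem2, Tmem141, Rnf122 and Gpr17) fell past the threshold, against 1.36% of all genes tested. None was called higher. At an unadjusted p under 0.05 were 8 of the 10, beside 8.5% of all genes that were lower at that level. On estimated reads, edgeR quasi-likelihood called the same 4 genes (1.72% of all genes lower), the edgeR likelihood ratio test 7 (4.28%) and DESeq2 8 (5.5%). For 8 of the 10 every cMU value lay below every CT value, which was the case for 8.26% of all genes tested. The median log2 fold change of the 10 genes was -0.40, beside 0.05 over all genes tested, and 39.9% of all genes had a negative fold change. Gpr17 and Tmem141 are among the genes that the study selected for display from these same samples, so their calls are not independent evidence of direction. Whether the lower levels reflect fewer cells of this stage or less RNA in each of them cannot be told apart in whole nerve.

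The calls depended on single samples and on the pairing of samples. Of the 10 genes, 3 (Tmem2, Tmem141 and Rnf122) were called without CT sample 4 or without cMU sample 1, where the whole table held 119 and 191 called genes. Without CT sample 1 only Tmem141 was called (62 in the whole table), and none without CT sample 2, CT sample 3 or cMU sample 3, where the whole table held 15, 6 and 6 called genes. Without cMU sample 2, 7 were called, with Enpp6, Fyn and Nfe2l3 added, in a fit that called 909 genes in all, 344 of them lower. All 10 fold changes stayed negative in each of these fits. With the replicate number as a block, 7 of the 10 genes were called lower (Bcas1, Enpp6 and Fyn in addition), against 1.94% of all genes. In that fit CT sample 4 has no partner and does not contribute to the fold change. The labels do not say what the numbers stand for, so the pairing is assumed.

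**Figure D2:**
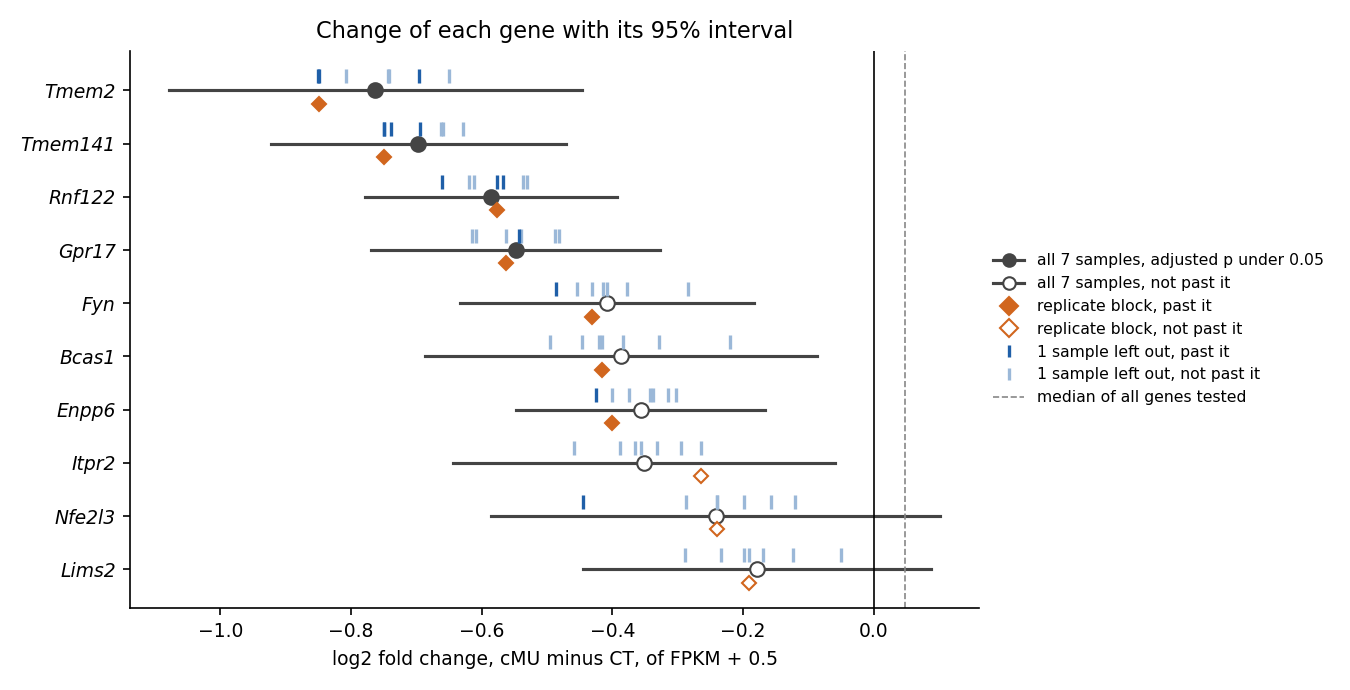
Log2 fold change (cMU minus CT) of the 10 genes with its 95% interval from all 7 samples (circles), with the replicate block (diamonds) and with each of the 7 samples left out in turn (ticks), where filled or dark marks have an adjusted p under 0.05. All marks lie below 0, and the intervals of Nfe2l3 and Lims2 reach above 0.

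Gpr17 encodes a Gi-coupled receptor related to the P2Y and cysteinyl leukotriene receptors, found at the surface of committed OL precursors and lost before they mature. The gene lies on the minus strand of chromosome 18 (GRCm38, 31942997 to 31949636). Its level was 212, 276, 244 and 233 FPKM in CT samples 1 to 4 and 151, 163 and 179.9 FPKM in cMU samples 1 to 3. Every cMU sample lay below the lowest CT sample, and the cMU mean was 68.2% of the CT mean. This gave a log2 fold change of -0.55 ± 0.10 (SE), with an adjusted p of 0.0327 by limma-trend. With 1 sample left out it was called in 1 of 7 fits, with adjusted p between 0.0417 and 0.114.

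Relatives of this receptor were measured as well. Of 10 receptors of the P2Y, cysteinyl leukotriene and oxoglutarate groups, 6 were expressed enough for testing. While 39.9% of all genes tested had negative fold changes, all 6 (5 under quantile normalization) had positive ones, with a median of 0.31. None was called by limma-trend, with 3 at an unadjusted p under 0.05, none called by edgeR quasi-likelihood, 1 by DESeq2 and 1 higher with the replicate block. P2ry12, a receptor of microglia and the highest of them, had 25.7 ± 1.40 FPKM in CT and 32.7 ± 5.50 in cMU (log2 fold change 0.33, adjusted p = 0.124 by limma-trend). It overlaps the span of Med12l on the other strand. Among 7 genes of inhibitory G proteins and of effectors linked to Gpr17, 1 was called. This was Id2, an inhibitor of differentiation that acts on basic helix-loop-helix factors, which rose from 42.5 ± 3.09 FPKM to 60.1 ± 5.12 (log2 fold change 0.49, adjusted p = 0.0253 by limma-trend). Gnai2, the most abundant gene of that list, had 357 ± 17.7 FPKM in CT and 398 ± 18.5 in cMU. Its groups lay apart, with an adjusted p of 0.197 by limma-trend. With the replicate block 1 gene of the list was called lower and 1 higher.

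Fyn encodes the Src family kinase through which contact with axons is signalled to OLs. It lies on the plus strand of chromosome 10 (39368855 to 39565381). Levels of Fyn were 356, 379.9, 351 and 339 FPKM in CT samples 1 to 4 and 226, 299 and 286 FPKM in cMU samples 1 to 3. The groups lay apart, with cMU sample 1 well below the other two. A log2 fold change of -0.41 ± 0.10 (SE) had an adjusted p of 0.0646 by limma-trend and of 0.0408 with the replicate block. Its CT values varied least among the 10 genes, with a coefficient of variation of 4.80%.

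Of 9 other Src family kinases and their regulators, 7 were tested and none was called by limma-trend, edgeR or DESeq2, with none at an unadjusted p under 0.05 and a median log2 fold change of 0.09. Csk, which phosphorylates the inhibitory tyrosine of these kinases and was the highest of the list, had 15.2 ± 1.39 FPKM in CT and 16.1 ± 1.58 in cMU. Fyn stood at 356 FPKM in CT. Among 11 genes of Fyn partners, 1 was called. Cntn1, whose product contactin forms part of a cell surface complex with Fyn, fell from 118 ± 11.5 to 76.4 ± 10.2 FPKM (log2 fold change -0.63, adjusted p = 0.0274 by limma-trend). Rhoa, a GTPase downstream of the kinase and the most abundant of the list, had 257 ± 5.24 FPKM in CT and 232 ± 7.73 in cMU, with groups that lay apart and an adjusted p of 0.146. Rhoa overlaps Tcta on the other strand.

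Bcas1 encodes a cytoplasmic protein that labels newly formed and early myelinating OLs. The gene occupies 170346991 to 170427845 on the minus strand of chromosome 2. Values were 450.4, 546, 487 and 456 FPKM in CT samples 1 to 4 and 293, 429 and 401 FPKM in cMU samples 1 to 3. The highest cMU value came close to the lowest CT value, but the groups did not overlap. The log2 fold change of -0.39 ± 0.13 (SE) had an adjusted p of 0.129 by limma-trend and of 0.0450 with the replicate block. Without cMU sample 1 the log2 fold change was -0.22. Of its 3775 exonic bases in GENCODE, 440 are shared with the antisense gene Bcas1os1 and 34 with Bcas1os2.

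Enpp6 encodes a phosphodiesterase that releases phosphocholine from choline lipids, and its promoter is shown above. It lies on the plus strand of chromosome 8 (46986925 to 47094895). CT samples 1 to 4 had 231, 205, 221 and 193 FPKM, and cMU samples 1 to 3 had 154, 182 and 162 FPKM. The groups lay apart by 11.6 FPKM between the lowest CT and the highest cMU sample. Enpp6 had a log2 fold change of -0.36 ± 0.08 (SE), with an adjusted p of 0.0608 by limma-trend and of 0.0494 with the replicate block.

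None of the 5 tested relatives of the ENPP family was called, with 1 at an unadjusted p under 0.05, none by edgeR quasi-likelihood and 1 lower by DESeq2. Their median log2 fold change was 0.08. Enpp2, which encodes autotaxin and is itself abundant in OLs, had 481 ± 34.5 FPKM in CT and 388 ± 30.7 in cMU, with groups that lay apart and an adjusted p of 0.0756 by limma-trend. Enpp7 was listed at 0 in all samples. Of 8 genes of choline handling, none was called by limma-trend (3 at an unadjusted p under 0.05, none by edgeR quasi-likelihood, 1 lower by DESeq2), and the median was -0.13. The choline transporter Slc44a1, the highest of these, had 344 ± 22.5 FPKM in CT and 273 ± 36.0 in cMU. Its groups lay apart (adjusted p = 0.0892 by limma-trend).

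Itpr2 encodes a receptor for inositol trisphosphate, a channel that releases calcium from the endoplasmic reticulum. It spans 146108299 to 146502223 on the minus strand of chromosome 6. CT samples 1 to 4 had 44.9, 36.9, 31.78 and 47.9 FPKM, and cMU samples 1 to 3 had 30.3, 31.4 and 31.76 FPKM. The groups were separated by the distance between CT sample 3 and cMU sample 3 alone, and the CT samples spread over a wider range than the cMU samples, with coefficients of variation of 18.2% and 2.46%. Itpr2 had a log2 fold change of -0.35 ± 0.13 (SE), with an adjusted p of 0.146 by limma-trend and of 0.181 with the replicate block. Of 12 other calcium channels, pumps and sensors of the reticulum and the store-operated pathway, 9 were tested and none was called (3 at an unadjusted p under 0.05, none by edgeR quasi-likelihood, 1 lower and 1 higher by DESeq2, 1 higher with the replicate block). The calcium pump Atp2a2 had 115 ± 7.99 FPKM in CT and 115 ± 6.69 in cMU.

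Tmem2, now also named Cemip2, encodes a cell surface protein that degrades hyaluronan, a sugar polymer of the extracellular matrix. The gene lies at 21778342 to 21858327 on the plus strand of chromosome 19. Its level was 36.7, 26.3, 30.1 and 24.1 FPKM in CT samples 1 to 4 and 19.1, 15.3 and 16.4 FPKM in cMU samples 1 to 3. All cMU values lay below all CT values, and the cMU mean was 57.7% of the CT mean, the lowest ratio among the 10 genes. The log2 fold change was -0.76 ± 0.14 (SE), with an adjusted p of 0.0337 by limma-trend. Of 9 other genes of hyaluronan synthesis, breakdown and binding, 7 were tested and none was called by limma-trend, edgeR or DESeq2, with none at an unadjusted p under 0.05 and a median of 0.17, and 1 was called higher with the replicate block. Hyal2, the hyaluronidase with the highest level, had 9.22 ± 0.894 FPKM in CT and 10.2 ± 1.96 in cMU.

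Tmem141 encodes a small membrane protein, and its promoter is shown above. It occupies 25620067 to 25622005 on the minus strand of chromosome 2. Values of 111, 143, 134 and 111 FPKM in CT samples 1 to 4 stood against 76.0, 80.9 and 72.4 FPKM in cMU samples 1 to 3. The gap between the groups was 30.3 FPKM, wider than the range of 8.51 FPKM within cMU. It was not wider than the range within CT, from 111.2 to 143.3 FPKM. Its log2 fold change of -0.70 ± 0.10 (SE) had an adjusted p of 0.0213 by limma-trend, and with 1 sample left out the gene was called in 4 of 7 fits, more often than any other of the 10.

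Rnf122 encodes a membrane-bound RING finger protein that acts as an E3 ubiquitin ligase. It lies on the plus strand of chromosome 8 (31111820 to 31131482). In CT samples 1 to 4 it reached 67.1, 57.4, 56.5 and 61.7 FPKM, and cMU samples 1 to 3 had 39.1, 44.6 and 37.2 FPKM. All cMU samples were below all CT samples, at 66.4% of the CT mean. Its log2 fold change of -0.59 ± 0.09 (SE) had an adjusted p of 0.0214 by limma-trend. Of 7 other membrane-bound RING ligases, none was called by limma-trend, edgeR or DESeq2 (1 at an unadjusted p under 0.05), and the median was 0.06 (-0.01 with normalized counts and -0.02 with quantile normalization). Rnf13, the highest of them, had 276 ± 17.3 FPKM in CT and 247 ± 33.0 in cMU.

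Lims2 encodes PINCH2, an adaptor that links integrin-linked kinase to the cytoskeleton. It lies at 31931507 to 31958619 on the plus strand of chromosome 18, and its span contains all of Gpr17 on the opposite strand. CT samples 1 to 4 had 38.3, 43.8, 48.2 and 41.9 FPKM, and cMU samples 1 to 3 had 31.6, 38.9 and 44.1 FPKM. The groups overlapped, and cMU sample 3 exceeded 3 of the CT samples. The log2 fold change was -0.18 ± 0.12 (SE), with a 95% interval from -0.44 to 0.09 and an adjusted p of 0.377 by limma-trend. Without cMU sample 1 the value for Lims2 was -0.05 (adjusted p = 0.826), and without cMU sample 3 it was -0.29 (0.226). In GENCODE 188 exonic bases are common to Lims2 and Gpr17, 6.14% of the exonic bases of Lims2 and 3.62% of those of Gpr17. The kit kept the strand, but whether reads were counted by strand is not given in the sources used here, so the values of both genes are uncertain to that extent.

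Among 8 other genes of adhesion through PINCH, integrin-linked kinase and parvins, 1 was called. Parvb, which encodes beta-parvin, fell from 263 ± 13.7 to 179 ± 15.3 FPKM (log2 fold change -0.55, adjusted p = 0.0197 by limma-trend). Ilk itself, the kinase, was named after its values were seen and had 200.3 ± 5.11 FPKM in CT and 171 ± 3.18 in cMU, with an adjusted p of 0.0599. The median of the 8 genes was 0.09, and with the replicate block 1 was called lower and 1 higher.

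Nfe2l3 encodes NRF3, a transcription factor with a basic leucine zipper of the CNC type. It is found at 51432670 to 51458768 on the plus strand of chromosome 6. CT samples 1 to 4 had 11.6, 10.6, 9.57 and 10.6 FPKM, and cMU samples 1 to 3 had 7.43, 11.9 and 7.84 FPKM. The groups overlapped because cMU sample 2 exceeded every CT sample, while the other two cMU samples lay below all of them. The log2 fold change was -0.24 ± 0.15 (SE), with an adjusted p of 0.356 by limma-trend. For Nfe2l3 each cMU sample moved the value, to -0.12 without sample 1 (adjusted p = 0.715 by limma-trend), to -0.45 without sample 2 (0.0428) and to -0.16 without sample 3 (0.643). Of 9 genes of related factors and their partners, none was called (2 at an unadjusted p under 0.05, none by edgeR quasi-likelihood and 1 higher by DESeq2). Nfe2l1, the highest of them, had 59.4 ± 6.36 FPKM in CT and 78.9 ± 15.7 in cMU, with an adjusted p of 0.124 by limma-trend and of 0.0326 with the replicate block.

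The 10 genes also varied among the cMU samples. The lowest of the 3 cMU values was in sample 1 for 7 of the 10 genes, whereas this was the case for 26% of all genes tested. The highest was in sample 2 for 6 genes, beside 21.4% of all genes. Relative to the CT mean, the mean log2 level of the 10 genes was -0.57 in cMU sample 1, -0.35 in sample 2 and -0.43 in sample 3, and CT samples lay between -0.05 and 0.03. In cMU sample 1 the mean of meningeal fibroblast markers was also the highest of all samples, at 1.11 above the CT mean.

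Position, length, base composition and annotation were examined as well. The 10 genes lie on 6 chromosomes, and their transcripts of 782 to 6626 bases (median 2410.5) had 48.0% to 57.3% G and C, where all tested genes had medians of 2151 bases and 50.8%. Of the 10, only Fyn carried the term for myelination in the annotation of the table, and none carried those for OL differentiation or OL development.

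Other genes known from the same stage formed a list of their own. Of 21 listed, 20 were found and tested. Negative fold changes were found for 19, beside 39.9% of all genes tested, and 7 were called lower, beside 1.36% of all genes. None was called higher. Their median log2 fold change was -0.44, beside -0.40 for the 10 genes. The list was chosen with earlier results of these data known, so it is not independent support. The 4 with the smallest p-values were 1810041L15Rik, which fell from 78.5 ± 1.76 to 49.2 ± 4.78 FPKM, the kinesin Kif19a (59.5 ± 4.25 to 37.7 ± 1.70), the calcium-sensing receptor Casr (17.2 ± 2.67 to 7.37 ± 1.26) and the sialidase Neu4 (25.2 ± 4.13 to 14.9 ± 1.51). The adhesion molecule Nfasc, the most abundant of the list, had 1017 ± 78.1 FPKM in CT and 826 ± 63.0 in cMU. Its groups lay apart, with an adjusted p of 0.0984 by limma-trend.

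To set the 10 genes against the stages before and after, OPC markers and myelin genes were measured in the same samples. Of 9 OPC markers 2 were called lower and none higher, with a median of -0.28. These were Vcan, the proteoglycan versican (65.4 ± 2.56 to 44.8 ± 6.17 FPKM), and Cspg4, which encodes NG2 (11.7 ± 1.42 to 8.15 ± 0.319 FPKM). Of the 3 transcription factors of the whole lineage Olig2 was called lower (73.9 ± 5.20 to 54.8 ± 6.12 FPKM), and 2 were with the replicate block. Only cMU carried Olig2Cre, so an effect of that allele on Olig2 cannot be told apart from an effect of Fasn loss. Olig1 had 284 ± 38.0 FPKM in CT and 228 ± 10.1 in cMU, with an adjusted p of 0.127. Of 13 myelin genes 3 were called lower, with a median of -0.32. They were the sulfatide synthesis enzyme Gal3st1 (84.5 ± 6.82 to 55.7 ± 1.79 FPKM) and the myelin proteins Mag (2539 ± 138 to 1859 ± 101) and Cnp (2721 ± 94.9 to 1988 ± 195). With the replicate block the calls of Mag and Cnp were lost, with adjusted p of 0.0726 and 0.0605, and 2 of the 13 were called lower. The call of Cnp was also lost with the median ratio (0.0615), normalized counts (0.0962), quantile normalization (0.0963) and edgeR quasi-likelihood (0.0646), and that of Mag with normalized counts (0.0626) and quantile normalization (0.155). Mbp, the most abundant, had 26383 ± 2482 FPKM in CT and 18797 ± 2207 in cMU. Its groups lay apart, with an adjusted p of 0.147 by limma-trend.

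The 10 genes were then expressed relative to these lists. For each sample, the mean log2(FPKM + 0.5) of the 9 OPC markers or of the 13 myelin genes was subtracted from the value of the gene. Relative to OPC markers, all cMU samples lay below all CT samples for Tmem141, Rnf122 and Gpr17, with differences between the means of -0.40, -0.29 and -0.25 on the log2 scale, as was the case for 0.49% of all genes tested. Relative to myelin genes this held for Tmem141 and Rnf122, with differences of -0.41 and -0.30, and for 0.541% of all genes. The exact two-sided permutation p of each of these was 0.0571, the smallest that 4 against 3 samples allow, and the adjusted p over the 20 comparisons was 0.229. No comparison could have passed 0.05 with these sample numbers, so this test cannot decide whether a gene moved relative to a list. Tmem2 differed by -0.47 relative to OPC markers, but its groups overlapped (exact permutation p = 0.114). Bcas1, Enpp6, Fyn and Itpr2 differed by -0.12 to -0.05 and overlapped relative to both lists, and the differences of Lims2 and Nfe2l3 were 0.04 to 0.12. The groups lay apart in 5 of the 20 comparisons with all samples, and in 8 without cMU sample 1 and in 8 without cMU sample 3. Leaving out a sample cannot make separated groups overlap, so this count could only stay or rise and does not measure stability.

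**Figure D3:**
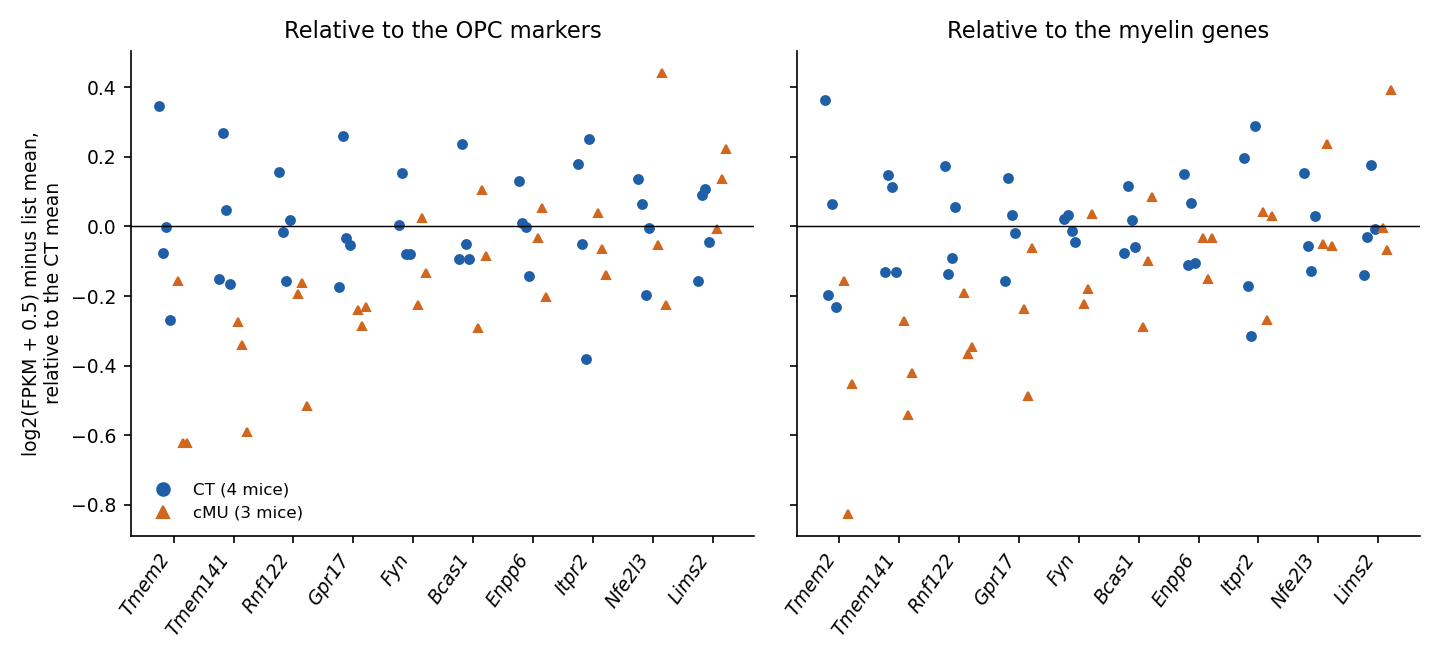
Level of each of the 10 genes in the 7 samples after subtraction of the mean of the OPC markers (left) or of the myelin genes (right), on the log2 scale relative to the CT mean, with CT as circles and cMU as triangles. Tmem141 and Rnf122 separate the groups in both panels, and Gpr17 does so in the left panel.

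Markers of other stages and cells were measured in the same samples. Of 10 mature OL markers, 1 was called, the protease Klk6, which rose from 9.84 ± 1.34 to 26.0 ± 4.39 FPKM, and the median was 0.06 (-0.01 with normalized counts). With the replicate block 1 was called lower and 1 higher. Ptgds, the most abundant of them and also a meningeal product, had 6054 ± 418 FPKM in CT and 10776 ± 3575 in cMU. Its groups lay apart, with an adjusted p of 0.0820 by limma-trend. All 9 astrocyte markers had positive fold changes, with a median of 0.55, where 39.9% of all genes tested had negative ones. Of the 9, 4 were called higher (Aldoc, Gja1, Aldh1l1 and Slc1a2), beside 1.26% of all genes. The call of Slc1a2 was lost under the 3 other scalings (adjusted p of 0.0625 with the median ratio, 0.0764 with normalized counts and 0.0582 with quantile normalization) and by edgeR quasi-likelihood (0.0550). With the replicate block 7 of the 9 were called higher. Their summed level was 3123 to 3573 FPKM in CT and 4112 to 4938 in cMU. The glial filament gene Gfap, the highest of them, had 1520 ± 110.4 FPKM in CT and 1956 ± 219.6 in cMU. Its groups lay apart (adjusted p = 0.0953 by limma-trend).

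All 8 microglia (7 under each of the 3 other scalings), 8 vessel, 8 meningeal fibroblast and 6 neuron markers (5 with normalized counts) had positive fold changes, with medians of 0.21, 0.28, 0.59 and 0.23, and none of these genes was called by limma-trend without the block or by edgeR quasi-likelihood. Over all genes tested, 39.9% had negative fold changes. With the replicate block 1 microglia, 3 vessel, 6 meningeal fibroblast and 1 neuron marker were called higher, beside 890 of all 13866 genes tested. At an unadjusted p under 0.05 stood 3, 5, 5 and 1 of these markers, and DESeq2 called 0, 2, 4 and 0. Summed levels in CT and cMU were 241 to 289 and 274 to 319 FPKM for microglia, 152 to 196 and 204 to 220.3 for vessels, 1904 to 2675 and 2537 to 4840 for meningeal fibroblasts, and 112 to 125 and 114 to 173 for neurons. The vessel, meningeal and neuron markers of highest level, Rgs5, Igf2 and Map2, had log2 fold changes of 0.14, 0.50 and 0.08. The 4 Schwann cell markers summed to at most 8.60 FPKM in any sample. None of these markers was at 0 in any sample. The part of these other cells in the lower levels of the 10 genes was not tested.

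**Figure D4:**
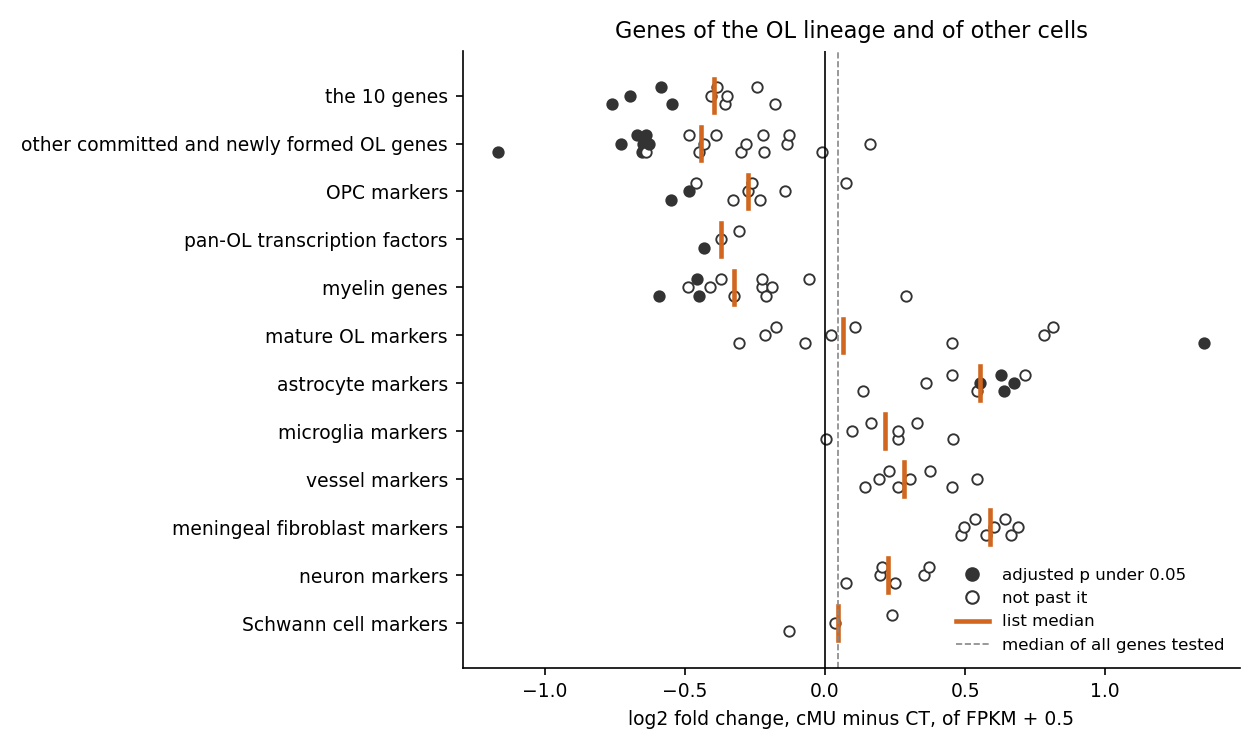
Log2 fold change (cMU minus CT) of the tested genes of the 10 and of 11 marker lists (2 genes that count in the list medians are not drawn), filled where the adjusted p was under 0.05, with list medians as vertical bars and the median of all genes tested as a dashed line. The medians of the OL lineage lists up to the myelin genes lie left of 0, and those of the astrocyte, microglia, vessel, meningeal fibroblast and neuron lists lie right of it.

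**Figure D5:**
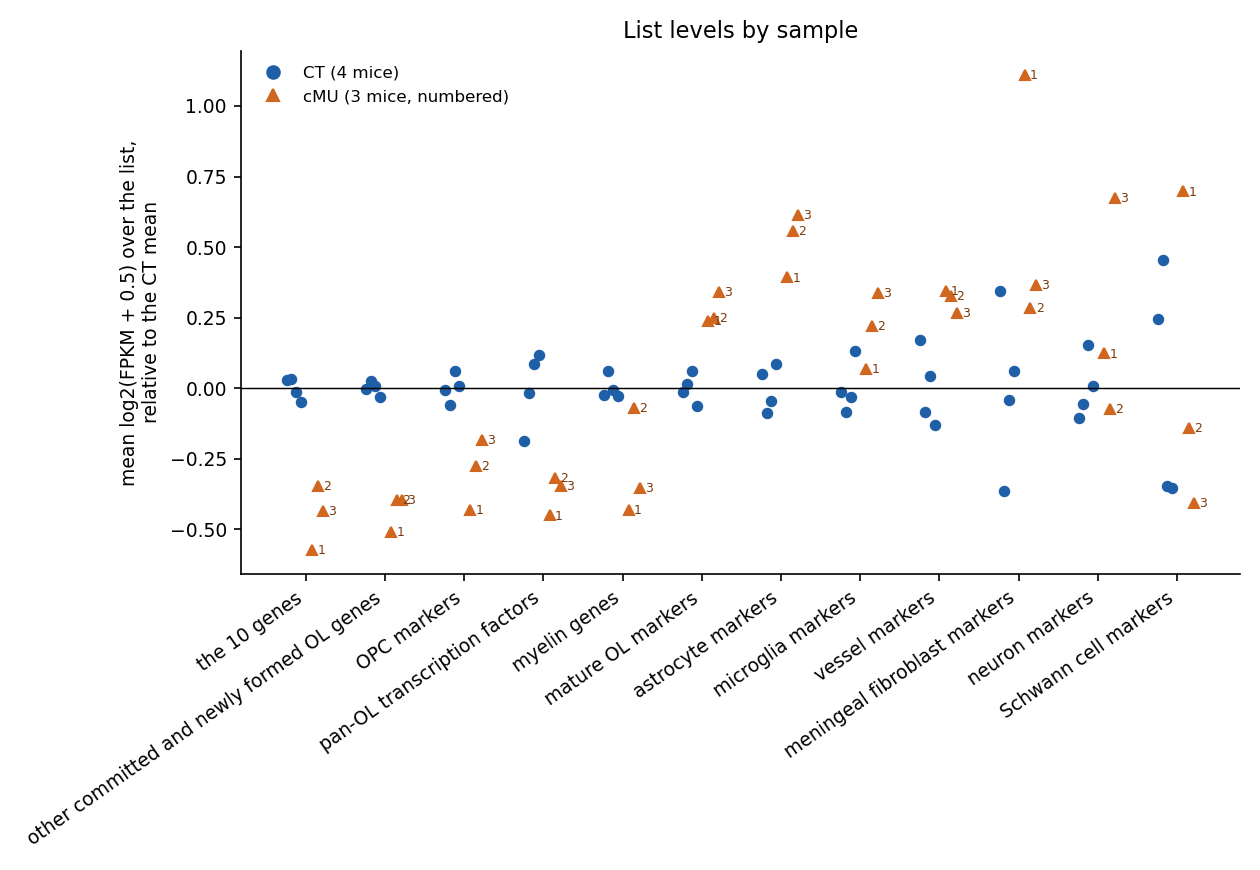
Mean log2(FPKM + 0.5) over each list in each of the 7 samples, relative to the CT mean, with CT as circles and the numbered cMU samples as triangles. For the 10 genes the cMU samples lie between -0.57 and -0.35, below all CT samples, and cMU sample 1 is lowest for the 10 genes and highest for the meningeal fibroblast markers.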

How the data were processed

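Polyadenylated RNA of P14 optic nerves was sequenced single end (125 bases) with a stranded kit. The submitters' notes name STAR 2.5.1b, RSEM 1.2.22, edgeR and GRCm38. For 22880 genes the authors deposited FPKM values and normalized counts (a signal, the estimated count over a size factor whose method is not given in the sources used here), and GC content as a fraction. Their log2 ratios, p-values and FDR were not used.

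Groups followed the labels. Genes needed 0.5 FPKM or more in 3 or more samples, and log2(FPKM + 0.5), which understates changes of low genes, was tested by genotype with limma-trend (limma 3.58.1). Fold changes are on that scale. Dividing normalized counts by the value of 1 read gave estimated reads in steps of 0.01, of which 75.8% to 81.0% of those between 0.5 and 10 lay within 0.05 of a whole number. These were rounded for edgeR 4.0.16 (quasi-likelihood and likelihood ratio, 400 and 1343 genes called) and DESeq2 1.42.0 (1683). The main limma-trend fit, both edgeR tests and DESeq2 were tried on simulated data, and the other fits were not. Replicates differed by more than counting noise. The labels number the samples but do not say what a number stands for. Correlations across genes of the deviations from the group mean were 0.168, 0.409 and 0.27 for same-numbered samples, against -0.353 to 0.205 for others. These ranges overlapped. A fit that adds the number as a blocking term, pairing samples 1 to 3, was run beside the first. This pairing is an assumption chosen from these same data.

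Members and lists were chosen with earlier results of these data known. Named are the 10 genes, Fasn, and from each list up to 4 called genes of smallest p and the gene of highest CT mean; 2 genes that this rule takes are not reported here.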

Additional observations from a re-analysis of the deposited data

Results flagged for a closer look

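Among the 4 CT samples, 1 sample stood far from the other 3 for 6 of 67 values examined, with a gap to the nearest sample, as a share of the range, above the 95% critical value of Dixon's test, and chance alone flags about 1 in 20 such groups. CT sample 1 stood apart for Cnp (2580.0 FPKM, ratio 0.842), Id2 (47.1 FPKM, 0.916), Parvb (283 FPKM, 0.858) and Hyal2 (7.90 FPKM, 0.847). CT sample 2 stood apart for Bcas1 relative to the OPC markers (4.41 on the log2 scale, 0.863), and CT sample 4 for Rhoa (249.4 FPKM, 0.866). The FPKM values of the 10 genes themselves gave no such case.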

How the results depend on the processing

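The fold changes of the 10 genes were negative under all 18 alternatives run. Of their 180 alternative values, 146 stayed on the same side of the threshold, 21 lost the call and 13 gained it. Only the 4 called genes could lose a call. Of 18 alternatives each, Gpr17 lost it in 7, Tmem2 and Rnf122 in 5 each and Tmem141 in 4. The called genes numbered 4 of the 10 under pseudocounts of 0.1 and 1, a minimum of 1 FPKM, the 3 other scalings and edgeR quasi-likelihood. Without a filter on low values 0 of the 10 and 95 genes in all were called by limma-trend, although 8 of the 10 had an unadjusted p under 0.05 with the filter. With the replicate block 7 and 1159 were called, with the edgeR likelihood ratio 7 and 1343, and with DESeq2 8 and 1683. Leaving out 1 sample gave calls for 0 to 7 of the 10 genes and for 6 to 909 genes in all. Groups then lay apart in 5 to 8 of the 20 comparisons with OPC and myelin lists, a count that can only stay or rise. The cause of these differences was not tested. Of the other named genes, Mag, Cnp and Slc1a2 lost their calls under other scalings, and uncalled ones changed sign. Atp2a2 was at 0.0109 with quantile normalization, at 0.00312 with the replicate block and at -0.0463 to 0.0367 with 1 sample left out. Rgs5 was at -0.00524 with the block and Map2 at -0.00215 with normalized counts. With 1 sample left out, the ranges were -0.00524 to 0.30 for Rgs5, -0.14 to 0.22 for Map2 and -0.0143 to 0.21 for Hyal2. Each value of the 10 genes rested on at least 395 estimated reads.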
